A study of Mus musculus with 10 samples.

Results

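The 10 genes described here encode secreted proteins of the extracellular matrix: periostin (Postn), thrombospondin 1 and thrombospondin 2 (Thbs1, Thbs2), tenascin C (Tnc), SPARC (Sparc), fibronectin (Fn1), osteopontin (Spp1), elastin (Eln), fibrillin 1 (Fbn1) and versican (Vcan). They were selected by gene symbol, out of 22473 genes named in the 5 region tables, and every region that the authors' annotation assigned to one of these symbols was taken. The regions themselves had been chosen by peak calls made on the same reads that are compared below, so a region with a peak in 1 library alone differed between the libraries by construction, and the values are a description with no test. The 10 genes held 21 of 74751 regions in the H3K9lc table of siHK1 and TGF, 127 of 72990 regions for JUN, 52 of 58633 for SMAD3, 68 of 68767 for NFATC2, and 20 of 65853 in the H3K9lc table of TGF and NC.

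The libraries were made by CUT&Tag, in which an antibody brings a transposase to the chromatin it binds and DNA cut there is sequenced, from primary mouse cardiac fibroblasts. The TGF libraries came from cells given TGF-β, the siHK1 libraries from cells transfected with siRNA against hexokinase 1 (HK1) and then given TGF-β, and NC is the control library, whose label ties it to H3K9lc. The labels do not state which siRNA, if any, the TGF and NC cells received, nor how many animals the cells came from. H3K9lc is lactylation of histone H3 at lysine 9, and JUN, SMAD3 and NFATC2 are transcription factors. There was 1 library per condition and antibody, so that no value has a replicate error, intervals cover counting error only, and every statement compares libraries. The knockdown could not be checked in these data, which hold no RNA measure.

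Matricellular proteins such as periostin, the thrombospondins, tenascin C, SPARC and osteopontin bind matrix fibres and cell surface receptors and are made in quantity by fibroblasts of the injured heart. Fibronectin, elastin, fibrillin 1 and versican build the matrix itself: fibronectin is the provisional scaffold that integrins grip, elastin the core of elastic fibres, fibrillin 1 the microfibril around it, and versican a large hyaluronan-binding proteoglycan. TGF-β is a classical inducer of such genes. It signals through SMAD3, and JUN, a subunit of the factor AP-1, and NFATC2, a factor switched on by calcineurin, act on many of the same cells.

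Totals over all listed regions were lower in siHK1 than in TGF for each antibody, by ratios of 0.570 for H3K9lc, 0.539 for JUN, 0.710 for SMAD3 and 0.616 for NFATC2, and the TGF over NC ratio was 20.02 for H3K9lc. Ratios of reads are therefore given raw and, on the log2 scale, relative to the totals of the table, where 0 means that a gene moved like its table. On that scale a raw ratio is shifted by 0.81 (H3K9lc), 0.89 (JUN), 0.49 (SMAD3) and 0.70 (NFATC2). The median region held 32 and 17 JUN reads in TGF and siHK1, 16 and 8 H3K9lc reads, 4 and 3 SMAD3 reads and 3 and 2 NFATC2 reads. As a check of the cells, JUN regions lay within 3 kb of a start site of 7 of 7 fibroblast marker genes (99.5 reads per kb in TGF), but also of 1 of 4 cardiomyocyte (51.9), 3 of 4 endothelial (71.9), 2 of 4 leukocyte (128) and 0 of 3 smooth muscle and pericyte marker genes. For SMAD3 the fibroblast promoters had 10.6 reads per kb in TGF and the cardiomyocyte promoters, those of Myh6 and Nppa, 59.4, so these regions do not single out a cell type. Between TGF and siHK1 the SMAD3 reads at such promoters went from 18 to 21 for fibroblast, 144 to 79 for cardiomyocyte, 6 to 19 for endothelial, 6 to 8 for leukocyte and 5 to 0 for smooth muscle and pericyte markers, and their part in the SMAD3 results was not tested.

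The sequences below are the central 200 bp, plus strand of GRCm38, of 7 JUN regions: the highest of Tnc, Thbs2, Spp1, Eln and Fbn1, a second Eln region at which peaks of 2 further antibodies lay, and the Postn region nearest upstream of its start site. The first 6 are shown because most of the JUN reads of these genes lie in such distal regions, and the Postn region, within 3 kb of the start site, as the start-site region with the most JUN reads. Capitals mark the AP-1 motif, TGANTCA, which reads the same on both strands. In the Eln region at chr5:134770813-134771396, which had no such match, capitals mark instead the SMAD motif CAGAC on either strand.
Tnc, chr4:64092842-64093041: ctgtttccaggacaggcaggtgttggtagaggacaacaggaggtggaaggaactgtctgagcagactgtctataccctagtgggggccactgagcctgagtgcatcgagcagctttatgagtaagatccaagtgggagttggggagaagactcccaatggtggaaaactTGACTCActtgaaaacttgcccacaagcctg
Thbs2, chr17:14610819-14611018: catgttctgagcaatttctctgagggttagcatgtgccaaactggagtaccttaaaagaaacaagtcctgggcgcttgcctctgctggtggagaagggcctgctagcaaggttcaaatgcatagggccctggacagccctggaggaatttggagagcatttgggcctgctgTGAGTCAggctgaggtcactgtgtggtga
Spp1, chr5:104380616-104380815: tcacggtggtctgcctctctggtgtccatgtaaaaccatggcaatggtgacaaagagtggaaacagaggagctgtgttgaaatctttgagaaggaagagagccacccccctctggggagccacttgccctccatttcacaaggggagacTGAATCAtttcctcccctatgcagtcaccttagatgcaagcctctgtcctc
Eln, chr5:134763469-134763668: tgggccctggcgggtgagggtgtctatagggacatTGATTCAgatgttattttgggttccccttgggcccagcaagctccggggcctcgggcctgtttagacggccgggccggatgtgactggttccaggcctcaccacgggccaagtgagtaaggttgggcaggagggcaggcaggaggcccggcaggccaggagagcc
Eln, chr5:134771005-134771204: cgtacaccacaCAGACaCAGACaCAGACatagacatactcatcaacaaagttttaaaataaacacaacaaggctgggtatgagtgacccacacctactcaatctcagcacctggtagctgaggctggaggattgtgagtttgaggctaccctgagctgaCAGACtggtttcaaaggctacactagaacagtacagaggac
Fbn1, chr2:125530738-125530937: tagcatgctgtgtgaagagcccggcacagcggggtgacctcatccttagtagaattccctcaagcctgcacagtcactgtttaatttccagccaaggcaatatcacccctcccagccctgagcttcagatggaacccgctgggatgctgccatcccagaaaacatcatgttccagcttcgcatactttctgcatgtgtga
Postn, chr3:54358579-54358778: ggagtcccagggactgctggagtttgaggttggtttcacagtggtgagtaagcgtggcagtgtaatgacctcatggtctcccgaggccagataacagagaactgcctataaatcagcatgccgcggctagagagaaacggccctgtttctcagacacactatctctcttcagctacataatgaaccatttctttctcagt
The Tnc, Thbs2, Spp1 and first Eln windows each held 1 AP-1 match, the second Eln window 4 SMAD matches, and the Fbn1 and Postn windows no AP-1 match. Most of the SMAD matches in the second Eln window lay side by side in a short repeat. Unmarked SMAD matches numbered 2 in the Tnc window and 1 each in the Spp1 and Postn windows. The SMAD motif lay in 65 of 127 member JUN regions (51.2%), against 44.5% of all JUN regions. Over all JUN regions of the 10 genes, 36 of 127 windows (28.3%) held TGANTCA, against 29.2% of all JUN regions. In the SMAD3 and NFATC2 tables the motif lay in 6.70% and 6.65% of all regions, and in 3 of 52 and 9 of 68 member regions. The SMAD motif lay in 22 of 52 member regions of the SMAD3 table (42.3%, against 38.2% of all) and the NFAT motif GGAAA in 23 of 68 of the NFATC2 table (33.8%, against 42.9%). Member JUN regions with the AP-1 match had a median of 60 reads in TGF and 29.5 in siHK1, and those without it 31 and 16. Over all JUN regions these medians were 43 and 22 with the match and 29 and 15 without it. Relative to the totals, the summed reads gave log2 ratios of 0.045 with and -0.0083 without the match, and the median region 0.073 and -0.15. A match is a string of letters and not a shown binding site.

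**Figure D1:**
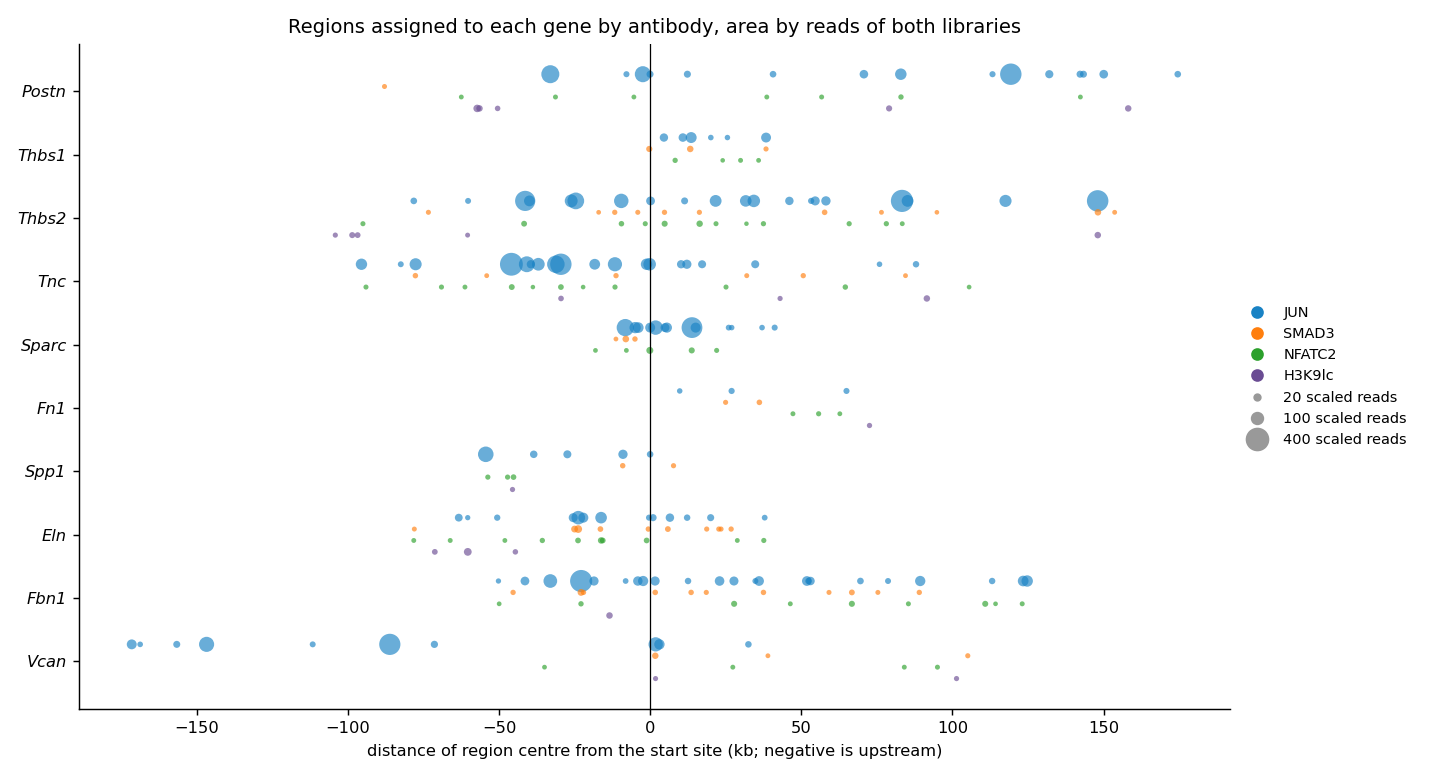
Position of each region assigned to the 10 genes, as the distance in kb of its centre from the start site of the gene (negative is upstream), by antibody in the siHK1 and TGF tables; the area of a point grows with the reads of both libraries after scaling to equal totals. JUN regions are the largest and lie from 171 kb upstream to 174 kb downstream, while SMAD3, NFATC2 and H3K9lc points are small.

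The regions spread widely around the genes. Of the 127 JUN regions 47 lay inside the gene, 52 upstream of it and 28 downstream, and 39 overlapped another gene as well. Only 14 lay within 3 kb of the start site of a main transcript, at 8 of the 10 genes: none did at Thbs1 or Fn1. The assignment to a gene is thus by nearness. The Tnc regions upstream of the start site lie within the non-coding gene 8030451A03Rik, those of Eln within the non-coding gene Gm30003, those of Vcan within Gm4117 and Xrcc4, and the 3 downstream Thbs1 regions within Fsip1.

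JUN was compared between siHK1 and TGF to ask whether HK1 depletion alters its binding near matrix genes. Every one of the 10 genes had fewer JUN reads in the siHK1 library, as did 95.4% of all genes, with 7595 reads in TGF against 4129 in sum, and 120 of 127 regions had fewer (94.5%, against 90.4% of all regions). Relative to the table totals the sum had a log2 ratio of 0.013 (95% counting interval -0.042 to 0.068). It was -0.046 with totals over regions called in both libraries, -0.043 without Thbs2 and 0.074 (0.0059 to 0.14), wholly above 0, without the regions that overlap another gene, which was added after seeing the data. The median gene stood at -0.044 against -0.011 over all genes. Fn1 and Eln had fewer reads than the totals predict and Spp1 and Thbs2 more. Of the 10 genes 2 had an interval wholly below 0 and 2 wholly above it, against 11.8% and 10.3% of all genes.

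Among the matricellular genes, Tnc, which encodes a large anti-adhesive glycoprotein, had the most JUN reads in TGF, 1659, and 822 in siHK1 over 19 regions. Thbs2, whose product restrains vessel growth and matrix turnover, had 1636 and 1013 over 20 regions. Its log2 ratio relative to the totals was 0.20 (0.086 to 0.31), above 0 although all 20 of its regions had fewer raw reads in siHK1. Postn, a marker gene of activated cardiac fibroblasts, had 914 and 445 reads over 15 regions (log2 ratio -0.15, -0.31 to 0.019). Sparc, whose product binds collagen, had 869 and 461 over 13 regions (-0.022, -0.19 to 0.14). These 2 genes and Tnc (-0.12, -0.24 to 0.00053) had intervals that included 0. With totals over regions called in both libraries Postn stood at -0.21 and Tnc at -0.18, and their intervals, shifted alike, then lay below 0. Spp1, whose product is an integrin ligand, had 191 and 151 reads over 5 regions, the highest log2 ratio of the 10 (0.55, 0.24 to 0.87), while in raw reads it too was lower in siHK1. Thbs1, whose product can activate latent TGF-β, had 187 and 96 over 6 regions (-0.070, -0.44 to 0.29).

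Among the structural genes, Fbn1 had 1016 JUN reads in TGF and 580 in siHK1 over 23 regions (0.083, -0.066 to 0.23). Vcan had 616 and 378 over 10 regions (0.19, -0.00099 to 0.37). Neither departed from the table totals by more than the counting error. Eln had 464 and 176 reads over 13 regions, each of which had fewer in siHK1, and its log2 ratio was -0.51 (-0.77 to -0.25). Fn1 had only 43 and 7 reads over 3 regions, in all of which a peak was called in TGF alone, and a log2 ratio of -1.73 (-3.12 to -0.56). It was the 1 gene of 10 past 2-fold lower and none was past 2-fold higher, against 2.3% and 1.86% of all genes with at least 20 scaled reads, that is, reads of both libraries after each is brought to the same total.

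Per length of the regions, JUN reads in TGF were highest for Tnc, at 173 per kb (counting interval 165 to 182), followed by Thbs2 (151), Postn (145) and Sparc (142), and lowest for Fn1 (58.2, 42.1 to 78.4). The intervals of Thbs2, Postn and Sparc overlap, as do those of Vcan (115) and Fbn1 (103), of Fbn1 and Eln (93.8), of Eln and Thbs1 (80.8), of Thbs1 and Spp1 (76.3) and of Spp1 and Fn1, so that these neighbours cannot be ordered. The table as a whole had 112 reads per kb. In siHK1 Thbs2 was highest, at 93.6 (87.9 to 99.5), ahead of Tnc at 85.9 (80.1 to 91.9), with overlapping intervals.

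**Figure D2:**
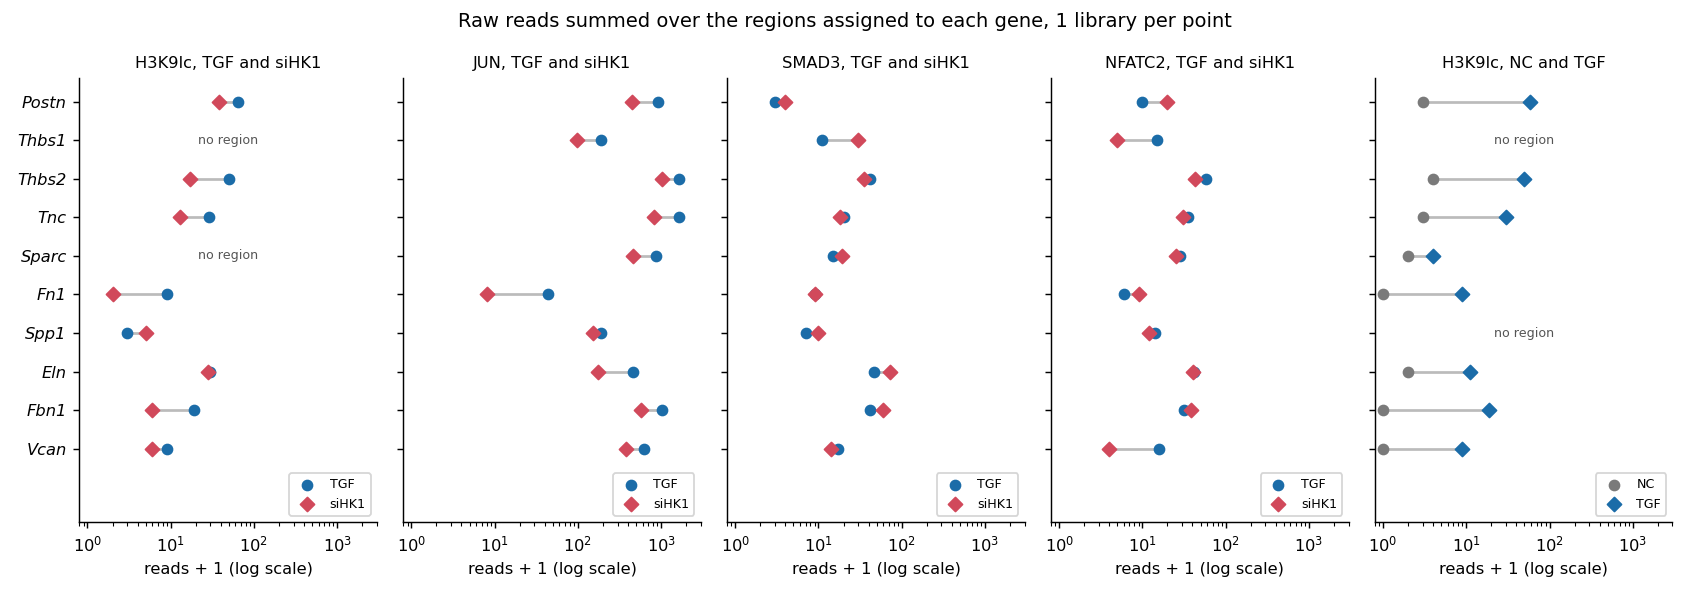
Raw reads plus 1, on a log axis, summed over the regions of each gene; each point is 1 library, circles for the first and diamonds for the second library of a table. In JUN every gene lies lower in siHK1 than in TGF, in SMAD3 and NFATC2 the points of most genes lie close together, and in the last panel NC is at 0 to 3 reads for every gene.

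Single JUN regions were strong enough to follow one by one, as 97 of 127 held at least 20 scaled reads. The highest was the Tnc region 45.4 kb upstream of the start site (chr4:64092448-64093434), with 323 reads in TGF and 149 in siHK1. Next came the Fbn1 region 22.2 kb upstream (chr2:125530241-125531434), with 311 and 134, and the Thbs2 region at chr17:14610409-14611427, 82.8 kb downstream of the start site and beyond the end of the gene, with 294 and 146. These 3 regions had peaks in TGF and in siHK1, and their log2 ratios were -0.22, -0.32 and -0.12. The other highest regions of a gene were at Postn (chr3:54479936-54480928, 251 and 147 reads), Vcan (chr13:89828334-89828986, 235 and 150), Sparc (chr11:55405611-55406890, over a coding exon, 227 and 143), Eln (chr5:134770813-134771396, 132 and 35), Spp1 (chr5:104380435-104380995, 102 and 88) and Thbs1 (chr2:118125150-118125726, over untranslated exon sequence, 59 and 33). All of them had fewer reads in siHK1. The Eln region was past 2-fold lower relative to the totals (-1.01, -1.60 to -0.48), and the Spp1 region was higher (0.68, 0.25 to 1.10).

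At the start sites, the 14 JUN regions within 3 kb held 820 reads in TGF and 420 in siHK1, a log2 ratio of -0.073. Postn had a region 2.14 kb upstream (chr3:54358387-54358969) with 153 and 71 reads and a weak one over its start with 17 and 10. Tnc had a region across its start (chr4:64046902-64047480) with 87 and 42 reads and one 0.867 kb upstream with 58 and 40. Sparc had 56 and 21 reads at its start (chr11:55419917-55420259) and 102 and 67 reads 1.51 kb into the gene. The log2 ratios of these regions ran from -0.50 at the Sparc start to 0.36 at the upstream Tnc region, so that single start-site regions differed more than their sum. Thbs2 had 43 and 14 reads at its start (chr17:14693896-14694334), Spp1 15 and 7 (chr5:104434897-104435295), Vcan 103 and 63 in a region 1.19 kb into the gene (chr13:89740081-89741318), and Fbn1 59 and 23 in a region 2.16 kb upstream (chr2:125510153-125510505). At Eln the 2 regions near the start were weak, 17 and 11 reads and 16 and 3.

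Past 2-fold relative to the totals, 20 of the 127 JUN regions were lower and 5 higher, against 11.4% and 7.44% of all regions. With at least 20 scaled reads, those furthest down were a Thbs2 region 78.0 kb upstream (chr17:14772263-14772650), with 26 TGF reads against 2 siHK1 reads, and a Postn region 142 kb downstream (chr3:54503120-54503588), with 31 and 3. Those furthest up were an Spp1 region 38.4 kb upstream (chr5:104396406-104396762), with 9 and 19, and an Fbn1 region 41.3 kb upstream (chr2:125549319-125549543), with 20 and 26. Of the lower regions 6 were among the 15 of Postn and 4 among the 13 of Eln, while Fbn1 had 2 lower and 3 higher of 23. Each of the 4 regions just named had its peak called in 1 library alone.

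**Figure D3:**
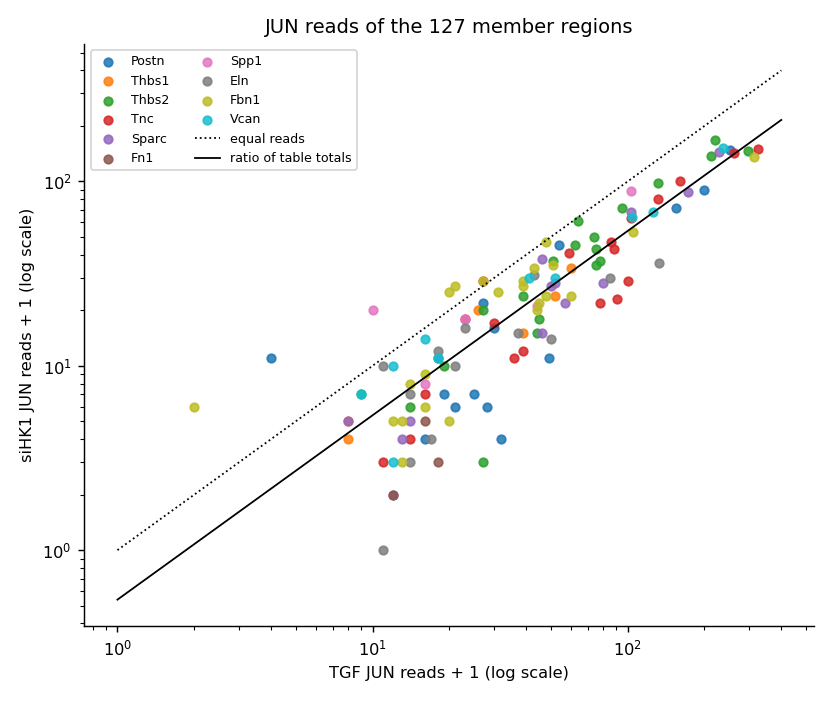
JUN reads plus 1 of the 127 regions in siHK1 against TGF, both on log axes, coloured by gene; the solid line is the ratio of the table totals (0.539) and the dotted line equal reads. Most points lie below the dotted line, and they scatter on both sides of the solid line.

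For SMAD3 most of the 10 genes had more reads in siHK1 than in TGF. They had 202 reads in TGF and 262 in siHK1 over 52 regions, a raw log2 ratio of 0.38 and of 0.87 relative to the totals (0.60 to 1.14). All 10 genes were above 0 relative to the totals, while in raw reads 6 were higher, 3 lower (Thbs2, Tnc, Vcan) and Fn1 equal. Among all genes 55.4% were above 0 and 38.2% had more raw reads in siHK1. By region, 29 of 52 (55.8%) had more raw reads, against 39.4% of all regions. The median gene was at 0.91, against 0.20 over all genes. Past 2-fold, 23 of 52 regions were higher and 13 lower, against 32.8% and 31.7% of all regions. With no scaling 19 were higher and 18 lower, against 23.5% and 40.1%, so this balance rests on the scaling. Peaks were called in siHK1 alone at 30 of the 52 regions (57.7%), against 47.7% of all regions, in TGF alone at 20 and in both at 2.

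Thbs1, Eln and Fbn1 gained the most reads. Their intervals lay wholly above 0 and none of the 10 lay wholly below, against 14.4% and 8.89% of all genes. They were also the 3 of 7 genes with at least 20 scaled reads that were past 2-fold higher, against 18.2% of all such genes, and 0 of 7 were past 2-fold lower, against 8.77%. Peaks were called in siHK1 alone at 3 of 3 Thbs1, 7 of 10 Eln and 8 of 11 Fbn1 regions. Over all SMAD3 regions with a peak in siHK1 alone the summed reads gave a log2 ratio of 1.41. The intervals of these 3 genes are thus not independent of the peak calls that chose the regions. Thbs1 had 10 and 29 reads over 3 regions (2.03, 0.95 to 3.23). Of these 17 came from a single region, chr2:118124917-118125335, over a coding exon 13.04 kb into the gene, which had 0 reads in TGF and 17 in siHK1. The log2 interval of this region relative to the totals began at 2.54, with no upper end. The authors' annotation calls this region a promoter because the start of a transcript other than the main ones is given as 1977 bp away, whereas the region at the main start site (chr2:118111383-118111763) had 8 and 8 reads. Thbs1 thus rests on 1 region.

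Eln had 46 and 72 SMAD3 reads over 10 regions (1.14, 0.59 to 1.71). The difference lay in adjoining regions upstream: chr5:134770881-134771396, 23.6 kb upstream, had 10 and 23 reads, and chr5:134771954-134772714, 24.6 kb upstream, had 2 and 19. Of the 5 regions inside the gene, those at chr5:134723777-134723988 and chr5:134724516-134724706 had 7 and 0 and 7 and 1, and the other 3 had more reads in siHK1 (2 and 5, 2 and 4, and 5 and 7). Fbn1 had 41 and 59 reads over 11 regions (1.02, 0.42 to 1.63), with more raw reads at 9 of the 11, the strongest being chr2:125530647-125531110, 22.7 kb upstream, with 10 and 13. At Sparc the region 7.83 kb upstream (chr11:55427912-55428377) had 6 and 14 reads, within 14 and 18 for the gene. At Vcan the region 1.5 kb into the gene (chr13:89740617-89741010) had 6 and 12, while the gene as a whole had 16 and 13. The remaining genes had 40 and 34 reads (Thbs2), 19 and 17 (Tnc), 8 and 8 (Fn1), 6 and 9 (Spp1) and 2 and 3 (Postn), all within counting error of the totals. Only 6 of 52 regions held at least 20 scaled reads.

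NFATC2 gave a like but smaller shift. The 10 genes had 246 reads in TGF and 218 in siHK1 over 68 regions, a raw log2 ratio of -0.17 that became 0.52 relative to the totals (0.26 to 0.79), so the direction turned with the scaling. The median gene was at 0.53 against 0.21 over all genes. Past 2-fold, 34 of 68 regions were higher and 10 lower, against 38.4% and 25.6% of all regions, and peaks were called in siHK1 alone at 43 (63.2%, against 54.0%). With no scaling 14 regions were higher and 19 lower, against 26.0% and 37.6%, so this balance turned too. Reads were few, as 1 of the 68 regions held at least 20 scaled reads: the one over the Sparc start site (chr11:55419874-55420520), with 10 TGF and 14 siHK1 reads and no peak called in either.

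Postn and Fbn1 were the genes whose NFATC2 interval lay wholly above 0, and none lay wholly below, against 9.2% and 4.6% of all genes. Postn had 9 and 19 reads over 7 regions (1.78, 0.56 to 3.10), all 7 with a peak in siHK1 alone and none with more than 4 reads in a library. It was the 1 of 7 genes with at least 20 scaled reads past 2-fold higher, against 10.1%, and 0 were past 2-fold lower, against 5.42%. Fbn1 had 31 and 37 reads over 9 regions (0.95, 0.23 to 1.69), 7 of them with a peak in siHK1 alone. Over all NFATC2 regions with a peak in siHK1 alone the summed reads gave a log2 ratio of 1.45. The intervals of Postn and Fbn1 are thus not independent of the peak calls. Thbs1 (14 and 4 reads, -1.11, -3.17 to 0.56) and Vcan (15 and 3, -1.62, -4.05 to 0.20) were the 2 genes below 0, with intervals that included 0. Thbs2 had 57 and 42 reads, Eln 41 and 40, Tnc 34 and 30, Sparc 27 and 24, Spp1 13 and 11 and Fn1 5 and 8, each within counting error of the totals. For Eln this turned with the scaling: at -0.0020 to 1.33 its interval just included 0, and with totals over regions called in both libraries the ratio was 0.75 and the interval, shifted alike, lay above 0.

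**Figure D4:**
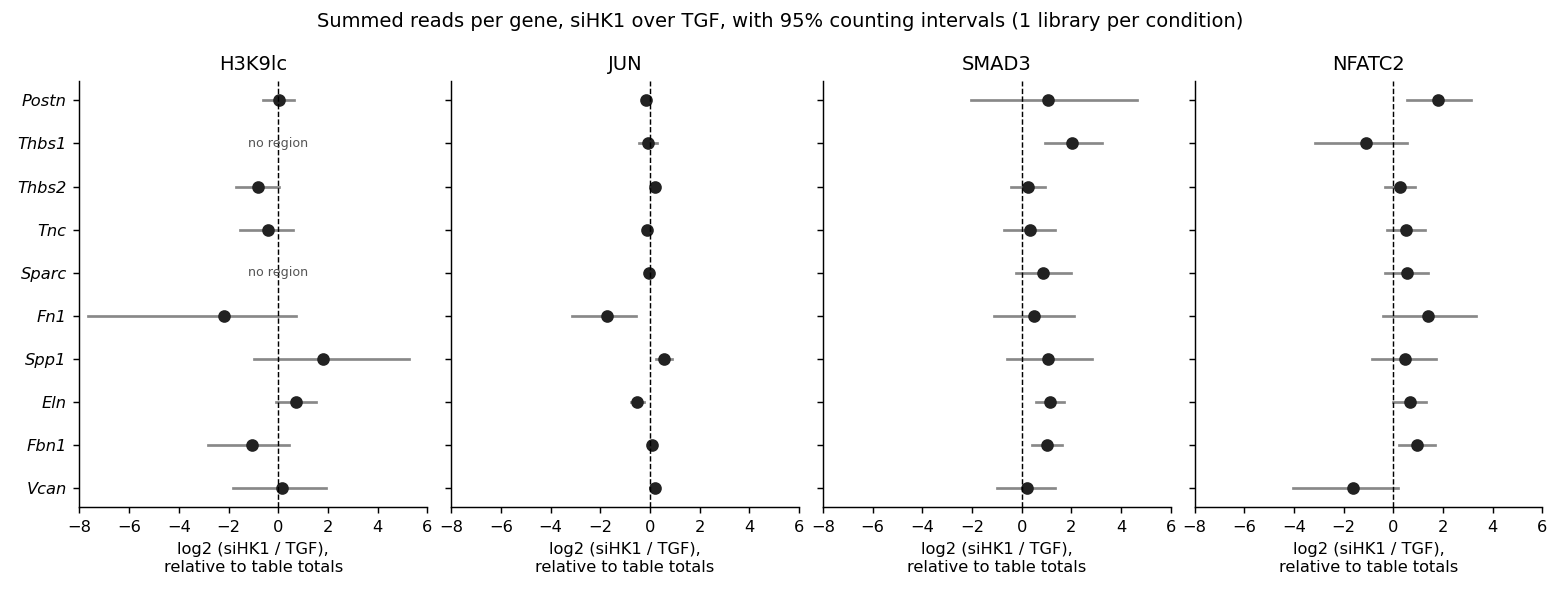
Log2 ratio of summed reads, siHK1 over TGF, relative to the table totals, for each gene and antibody; points are the ratio and bars the 95% counting interval, which holds no replicate error. In JUN the intervals of Fn1 and Eln lie below 0 and those of Spp1 and Thbs2 above it, all 10 SMAD3 points lie above 0, and the H3K9lc intervals all span 0.

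H3K9lc was sparse at these genes. Thbs1 and Sparc had no listed region in the siHK1 and TGF table, and the other 8 genes had 206 reads in TGF and 107 in siHK1 over 21 regions, a raw log2 ratio of -0.95 and -0.13 relative to the totals (-0.48 to 0.21). Without the regions that overlap another gene, an alternative added after seeing the data, 124 and 46 reads were left, with a ratio of -0.62 (-1.14 to -0.12), wholly below 0. A total of 7 of the 8 genes had fewer raw reads in siHK1, Spp1 with 2 and 4 being the exception, against 90.3% of all genes. Relative to the totals 4 were below 0 and 4 above, with a median of -0.17 against -0.050 over all genes. No member had an interval wholly below or above 0, against 7.23% and 4.97% of all genes. With totals over regions called in both libraries Thbs2 stood at -0.92 and its interval, shifted alike, lay below 0. At none of the 21 regions were peaks called in both libraries, against 20.8% of all regions, and 4 of the 21 held at least 20 scaled reads, against 54.6%. Past 2-fold, 4 regions were lower and 5 higher, against 13.7% and 13%, and of the 5 genes with at least 20 scaled reads 0 were past 2-fold lower or higher, against 2% and 1.73%. With no scaling 12 of the 21 regions were lower and 3 higher, against 44.0% and 4.94% of all regions.

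Postn had the most H3K9lc reads, 64 in TGF and 37 in siHK1 over 5 regions, the highest of them (chr3:54303649-54304061, 57.0 kb upstream, inside Trpc4) with 22 and 12. Thbs2 had 49 and 16 reads over 5 regions (-0.80, -1.72 to 0.036), each with a peak in TGF alone, and Tnc 28 and 12. Eln had 29 and 27, fewer in raw reads and 0.71 relative to the totals (-0.10 to 1.52), and its highest region (chr5:134807467-134807895, 60.1 kb upstream) had 18 and 17. Fbn1 had a single region, 13.4 kb upstream (chr2:125521346-125521687), with 18 and 5, and Fn1 a single region with 8 and 1. The 1 H3K9lc region within 3 kb of a start site was at Vcan (chr13:89740612-89740861), with 8 reads in TGF and 0 in siHK1. Its log2 interval relative to the totals reached up to 0.040 and so did not exclude the ratio of the table.

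TGF-β was compared with the control for the same mark. Here Thbs1 and Spp1 had no region and the other 8 genes had 9 reads in NC and 183 in TGF over 20 regions, a raw log2 ratio of 4.35. Relative to the totals this was 0.023 (-0.93 to 1.17), with a median gene at -0.37 against 0.057 over all genes. The direction of that median turned with the pseudocount, from 0.065 at 0.1 to -1.08 at 1, and with totals over regions called in both libraries the sum was 0.72. Every one of the 8 genes had more reads in TGF, as did 95.01% of all genes: Postn 2 and 58, Thbs2 3 and 49, Tnc 2 and 29, Fbn1 0 and 18, Eln 1 and 10, Fn1 0 and 8, Vcan 0 and 8, and Sparc 1 and 3. With 0 to 3 reads in NC, no gene could be told from the table. No interval lay wholly below or above 0, against 3.22% and 4.83% of all genes. Past 2-fold 8 of 20 regions were lower and 0 higher, against 24.9% and 14.7%. These counts hang on the pseudocount: more member regions were higher than lower at 0.1, and more lower than higher at 1. The share over all regions was not counted at either, so neither balance is read as a trait of these genes. Of the 2 genes with at least 20 scaled reads 0 were lower or higher, against 5.93% and 11.7%. The TGF library is the same in both H3K9lc tables, with the same reads at all 44088 regions they share, so the 2 comparisons are not independent.

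**Figure D5:**
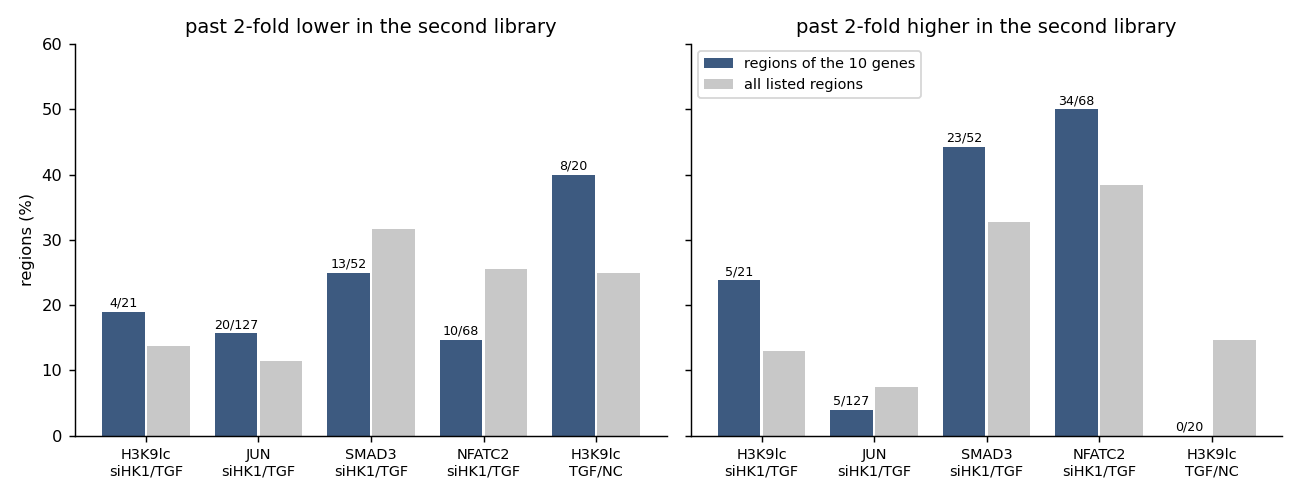
Share of regions past 2-fold lower (left) and higher (right) in the second library of each table, relative to the table totals, for the regions of the 10 genes (blue, with counts) and all listed regions (grey). For SMAD3 and NFATC2 the blue bars lie below the grey ones on the left and above them on the right, and for JUN the reverse holds.

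Listed regions of several antibodies overlapped at some loci, though their peaks were not always called in the same condition. At the Thbs2 locus named below the H3K9lc peak was called in TGF alone and the SMAD3 peak in siHK1 alone. Of the 127 JUN regions of these genes 24 overlapped a region of 1 further antibody and 8 of 2 further antibodies. By antibody, 16 JUN regions (12.6%) overlapped a SMAD3 region, 19 (15.0%) an NFATC2 region and 5 (3.94%) an H3K9lc region, against 18.1%, 15.4% and 6.07% of all JUN regions. Seen from the other side, 17 of 52 SMAD3 regions (32.7%) and 19 of 68 NFATC2 regions (27.9%) overlapped a JUN region, against 23.0% and 16.7% of all, and 5 of 21 H3K9lc regions (23.8%) did, against 5.92%. The loci with 3 antibodies, singled out after their values were seen, were the Tnc regions 29.3 kb and 11.2 kb upstream, the Eln regions 16.0 kb and 23.5 kb upstream, the Fbn1 region 22.2 kb upstream, the Sparc region 7.87 kb upstream, the Vcan region near its start and a Thbs2 region 148 kb downstream of its start.

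At the Tnc locus 29.3 kb upstream (chr4:64076295-64076847) JUN had 260 and 141 reads in TGF and siHK1, NFATC2 10 and 3 and H3K9lc 9 and 3, so that all 3 were lower in siHK1. At the Fbn1 locus (chr2:125530241-125531434) JUN had 311 and 134 reads and NFATC2 9 and 1, but SMAD3 10 and 13. At the Eln locus (chr5:134770813-134771396) JUN had 132 and 35, SMAD3 10 and 23 and NFATC2 5 and 6. In raw reads JUN was lower and SMAD3 higher in siHK1 at these last 2 loci. The same held in raw reads at Vcan (chr13:89740081-89741318), with 103 and 63 JUN reads, 6 and 12 SMAD3 reads and 8 and 0 H3K9lc reads, at Thbs2 (chr17:14545867-14546482), with 218 and 167, 7 and 12, and 16 and 6, and at Sparc (chr11:55427953-55428671), with 172 and 87 JUN and 6 and 14 SMAD3 reads. Relative to the totals JUN was below 0 at the Fbn1 and Eln loci (-0.32 and -1.01), near it at Sparc (-0.087) and above it at Vcan (0.19) and Thbs2 (0.51), so at the last 2 its direction turned with the scaling. All 16 JUN regions that overlapped a SMAD3 region had fewer JUN reads in siHK1, against 95.3% of all such overlaps, and at 13 of these 16 (81.25%) SMAD3 had more, against 58.7% of 13233 such overlaps over all genes with fewer JUN and more SMAD3 reads. The 3 with fewer SMAD3 reads were a Tnc, a Sparc and an Eln region. That Tnc region (chr4:64058247-64059111) is also a locus with 3 antibodies. It had 102 and 62 JUN, 5 and 3 SMAD3 and 2 and 4 NFATC2 reads. The other Eln locus with 3 antibodies (chr5:134763328-134763809) had 84 and 29, 2 and 8, and 8 and 10. Counting error is wide at such counts: the log2 interval of SMAD3 at the Eln locus chr5:134770813-134771396 ran from 0.57 to 2.93 and at the Fbn1 locus from -0.43 to 2.22.

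Lists of related genes were set beside the 10 genes. In SMAD3 the median was 0.91 for the 10 genes, 1.03 for 11 of 11 fibrillar collagens, 0.72 for 14 of 14 elastic fibre and microfibril genes, 0.58 for 11 of 11 receptors of such matrix proteins, 0.40 for 12 of 16 other matricellular genes, 0.39 for 5 of 8 contractile genes and 0.19 for 11 of 14 proteoglycan and linking genes, against 0.20 for all genes. The median of the collagens was thus above that of the 10 genes. With at least 20 scaled reads, 5 of 10 collagens (Col1a1, Col3a1, Col5a1, Col5a3 and Col27a1) and 4 of 11 elastic fibre genes (Fbln1, Ltbp2, Ltbp4 and Mfap5) were past 2-fold higher, against 18.2% of all such genes. So were 3 of 12 other matricellular genes (Ccn3, Ccn5 and Fstl1), 1 of 10 receptors (Itga5), 0 of 5 proteoglycan and linking genes and 0 of 2 contractile genes, and 0 genes of any of these lists were past 2-fold lower. Mfap5, a microfibril component, had 7 and 33 SMAD3 reads, and Ltbp2, a latent TGF-β binding protein, 20 and 59. In NFATC2 the medians were 0.53 for the 10 genes, 0.54 for the other matricellular genes, 0.44 for elastic fibre genes, 0.40 for contractile genes, 0.35 for collagens and for receptors, and -0.22 for proteoglycan and linking genes. In JUN all lists lay between -0.35 for contractile genes and 0.020 for collagens. In H3K9lc they ran from -0.29 for receptors to 0.74 for 4 contractile genes.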

How the data were processed

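CUT&Tag reads of 10 libraries were aligned and counted by the authors. The study's methods name Bowtie2 and MACS2, the submitters' processing notes name BWA 0.7.12 and mm10. Spike-in DNA is named, but no spike-in counts were used here, so differences in total chromatin signal between libraries cannot be scaled. The deposited values used here are raw read counts per region and library and a 0 or 1 mark for a called peak, both made by the authors. The deposited normalized log2 values, fold changes, p-values and calls are the authors' own comparisons and were not used. The methods name build GRCm39, but all 48676 table transcripts found in GENCODE vM21 had its GRCm38 coordinates, so coordinates are on GRCm38, counted from 1. Distances run from the nearest edge of a region to the start site, which is the outermost start of transcripts with a consensus coding sequence and the best support level. The library titled TGF has no antibody in its labels, and its table, with 4 columns of per-library values, was not used.

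Counts were summed per gene as deposited. Log2 ratios are relative to the table totals, with exact conditional binomial (Clopper-Pearson) 95% intervals. These hold counting error alone, as reads copied by PCR do not count molecules independently. The totals sum the listed regions and so are no measure of depth. Single regions are on log2(reads + 0.5), with the 2-fold limit on that scale, and the interval of a single region is that of the plain ratio. The filter was 20 scaled reads. With 1 library per group no test was made, and the calculation was checked on simulated counts. Motifs were counted in the central 200 bp of regions on both strands. The 10 genes, the lists, the markers and the alternatives were chosen with earlier results of these data known. Named regions were the highest of each gene and table, those within 3 kb of a start site with at least 20 scaled reads, and the 2 largest changes per direction and table; others were chosen after their values were seen. Alternatives changed the scaling, the pseudocount, the filter, the window around the start site and the genes summed, and 2 were added after seeing the data. Python 3.11.15, numpy 2.4.6, scipy 1.17.1 and pysam 0.24.0 were used.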

Additional observations from a re-analysis of the deposited data

How the results depend on the processing

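Scaling moved most values. With no scaling the sum over the 10 genes became -0.95 (H3K9lc), -0.88 (JUN), 0.38 (SMAD3), 4.35 (TGF over NC) and, with the direction reversed, -0.17 (NFATC2). Member regions past 2-fold then numbered 12 lower and 3 higher of 21 for H3K9lc (44.0% and 4.94% of all regions), 60 and 3 of 127 for JUN (45.9% and 2.002%), 18 and 19 of 52 for SMAD3 (40.1% and 23.5%), 19 and 14 of 68 for NFATC2 (37.6% and 26.0%), and 2 and 16 of 20 in TGF over NC (2.47% and 92.2%). With totals over regions called in both libraries the JUN sum was -0.046. That scaling shifts every region of a table alike. In TGF over NC it also moved the count of higher regions, for which no share over all regions was counted. Within 3 kb of any start site the sum was -3.28 for H3K9lc, from 1 region, and -0.12 for JUN. Within 3 kb of the main start site, an alternative added after seeing the data, it was -3.28 and -0.073. Leaving out regions that overlap another gene, also added, gave -0.62 (-1.14 to -0.12) for H3K9lc and 0.074 (0.0059 to 0.14) for JUN, neither interval including 0 any longer, and leaving out Thbs2 gave -0.043 for JUN. With at least 20 scaled reads the regions lower and higher were 0 and 0 of 4 (H3K9lc, 4.89% and 3.75% of all such regions), 8 and 3 of 97 (JUN, 6.32% and 4.25%), 0 and 5 of 6 (SMAD3, 10.04% and 24.2%) and 0 and 1 of 1 (NFATC2, 8.94% and 6.28%). In TGF over NC no member region held 20 scaled reads, so the count of 0 lower says nothing. There the balance of lower and higher regions also turned with the pseudocount, and no share over all regions was counted at the alternative pseudocounts. Of the other values 52 moved by less than their counting interval or, for counts, by at most 1.5 times, which still covers wide moves: the TGF over NC sum ran from -0.35 to 0.72, the H3K9lc sum turned to 0.12 within 50 kb of a start site, the NFATC2 sum within 3 kb was 0.30 with an interval of -0.37 to 0.97, and lower regions went from 10 to 15 for NFATC2 with a pseudocount of 0.1, from 13 to 18 for SMAD3 with no scaling and from 20 to 15 for JUN with a pseudocount of 1. The median gene of TGF over NC moved to -1.08 with a pseudocount of 1 and to 0.065 with 0.1. The SMAD3 sum stayed between 0.64 and 1.06 under every alternative but no scaling. For all of these values the cause was not tested. The deposited normalized log2 values were not run as an alternative, since their difference is the authors' own fold change. No paired analysis was possible because every group holds 1 library. Few reads limit SMAD3, NFATC2 and H3K9lc at these genes.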
